A study of Mus musculus with 54 samples.

Results

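The YAP pathway was followed here through 9 genes, Yap1, Wwtr1, Tead1, Lats2, Ctgf, Cyr61, Amotl2, Ajuba and Ankrd1. They were taken by symbol from tables of 25149 genes and cover the coactivators, a DNA-binding partner, a kinase, 2 scaffold or adaptor genes and 3 target genes of the pathway. All 9 were present in the tables, with Ctgf and Cyr61 under those older symbols for Ccn2 and Ccn1. The donors were CD-1 mice, 14 to 16 days old. Their follicles grew for 8 days in alginate, a hydrogel that holds a follicle in its round shape, and then spent 12 h in maturation medium with serum, EGF and recombinant FSH. The medium of the post-hCG follicles also held human chorionic gonadotropin (hCG), which acts on the receptor of luteinizing hormone (LH) and induces ovulation. Each follicle was then cut into the side that ruptures and the side that does not, and the RNA of single sides was amplified with Smart-Seq2, a protocol for very small RNA amounts. Without hCG no rupture takes place, so those sides were assigned from follicle shape and are called putative. The 4 groups held 15 putative unruptured and 14 putative ruptured sides without hCG, and 12 unruptured and 13 ruptured sides 12 h post-hCG.

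In the Hippo pathway, a kinase cascade that ends in the LATS kinases phosphorylates the coactivators YAP, encoded by Yap1, and TAZ, encoded by Wwtr1, and thereby holds them in the cytoplasm. Unphosphorylated YAP and TAZ enter the nucleus, bind TEAD factors on DNA and switch on genes such as Ctgf, Cyr61 and Ankrd1. Cell stretch, stiffness, cell density and actin tension act on this pathway, and in the ovary it has been studied for its part in granulosa cell proliferation and follicle growth. Because much of the control lies in phosphorylation, transcript levels of Yap1 or Lats2 are not a measure of the proteins' activity.

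The core letters that TEAD factors bind, GGAATG or CATTCC on the other strand, were searched in the 250 bases before each RefSeq gene start in GRCm38.p6. Of 32851 promoter entries, 12.6% held them. Entries existed for 7 of the 9 genes, and 6 of these 7 genes held the letters, which is 7 of 9 entries since Wwtr1 and Lats2 had 2 entries each and those of Wwtr1 overlap. The following stretches are shown because they carry these letters, in capitals, beside genes whose levels are given further on. The first 4 lie outside the genes annotated by GENCODE, and the Amotl2 and Ankrd1 stretches overlap an untranslated region of an annotated transcript.
Cyr61, chr3:145650056-145650115, minus strand: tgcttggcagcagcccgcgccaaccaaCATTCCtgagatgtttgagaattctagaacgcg
Ajuba, chr14:54577793-54577874, minus strand: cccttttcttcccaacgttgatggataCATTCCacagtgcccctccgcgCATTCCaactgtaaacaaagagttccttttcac
Yap1, chr9:8004705-8004764, minus strand: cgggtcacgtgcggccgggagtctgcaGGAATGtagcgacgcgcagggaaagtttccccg
Wwtr1, chr3:57576014-57576073, minus strand: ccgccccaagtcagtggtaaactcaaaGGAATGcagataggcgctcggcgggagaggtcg
Amotl2, chr9:102717727-102717756, plus strand: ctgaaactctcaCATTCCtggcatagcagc
Ankrd1, chr19:36119950-36119979, minus strand: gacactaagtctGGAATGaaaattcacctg

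The letters began 103 bases before the start of Cyr61, 65 before that of Amotl2, 141 before that of Yap1, and 136 or 170 before the annotated starts of Wwtr1. Ajuba held them at 186 and 164 bases and Ankrd1 at 210 and 123 bases, of which the nearer is shown. Neither Lats2 entry held them in these 250 bases. Both entries, chr14:57746074-57746373 and chr14:57734369-57734668, lie within the gene span given below. The bases before its annotated start at 57758388 were thus not searched. The Amotl2 entry, chr9:102717554-102717853, and the Ankrd1 entry, chr19:36119795-36120094, also lie within the spans of their genes. For these genes the bases before the GENCODE starts, 102716672 and 36120099, were not searched either. The AP-1 letters TGANTCA, present in 6.75% of all entries, and the CArG box of serum response factor, present in 1.47%, were found in 0 of the 9 entries, on either strand. A match is only a match of letters. In the GENCODE annotation of GRCm38, Yap1 spans chr9:7931999-8004596, Wwtr1 chr3:57455649-57575910, Tead1 chr7:112679318-112906807 and Lats2 chr14:57689662-57758388. Amotl2 spans chr9:102716672-102733418, Ajuba chr14:54567472-54577558, Ctgf chr10:24595442-24598683, Cyr61 chr3:145646976-145649981 and Ankrd1 chr19:36111961-36120099.

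Library totals ranged from 1497071 to 2834734 counts, and the smallest group median, 1744895, was that of the putative ruptured sides. The sample labels name the tissue cumulus-oocyte complex, whereas by the study's methods the complexes were removed. Oocyte markers summed to a median of at most 0.20 TPM (a level scaled by transcript length and by library) in every group, although 1 putative unruptured library reached 132. The 9 granulosa markers summed to medians of 2685 and 10393 TPM on the putative unruptured and putative ruptured sides, and to 1416 and 1194 TPM in the post-hCG unruptured and ruptured groups. The 7 smooth muscle markers summed to medians of 34.7 and 5.43 TPM without hCG and 4.54 and 2.45 TPM post-hCG, and the 7 surface epithelium markers to 10.03 and 7.69 TPM without and 5.02 and 3.17 TPM post-hCG. The 11 theca and stroma markers summed to medians of 535 and 40.8 TPM on the putative unruptured and putative ruptured sides, and 349 and 6.32 TPM in the post-hCG unruptured and ruptured groups. The 7 immune markers followed the sides, with medians of 30.8 and 0.63 TPM without hCG and 12.7 and 0.75 TPM post-hCG, and the 7 endothelial markers stayed at medians of 1.20 to 3.58 TPM. In such bulk samples, fewer cells of a type and less RNA per cell cannot be told apart. Library names end in a letter and number like plate wells: post-hCG libraries carry B to D and no hCG libraries F to H, so medium and letter cannot be told apart, and sides share only C and G. Nothing ties libraries to follicles or animals, so p-values measure the spread between these libraries.

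Groups were compared with edgeR's quasi-likelihood F-test on counts, with Benjamini-Hochberg adjustment over all genes tested, and a gene was called at an FDR under 0.05. A positive log2 fold change (log2FC) means higher on the ruptured side, or higher post-hCG. Where values of both sides are listed together, the unruptured side comes first. Of the 9 genes, 8 passed the filter on low counts in every comparison, and Ankrd1 passed in none. These fits scale libraries by TMM, which sets the bulk of genes to no change, whereas TPM levels are relative to each library's total. The median log2FC over all genes between the sides post-hCG was 0.01 in the fit and -0.21 on log2(TPM+1), so a small fitted rise can stand beside medians of TPM that do not rise.

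The media comparison asks which genes responded to the ovulatory stimulus on each side. On the unruptured side, 6 of the 8 tested genes fell post-hCG and 0 rose, where 53.1% of 9320 genes were called and 27.7% were called lower. On the ruptured side, 5 fell and 1 rose, where 60.1% of 8531 genes were called and 30.4% were called lower. The median log2FC of the 8 genes was -0.69 on the unruptured and -0.40 on the ruptured side, and over all genes it was -0.03 and -0.00. The genes that fell on both sides were Ctgf, Cyr61, Amotl2 and Wwtr1. Each of these kept their direction under every alternative on both sides.

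**Figure D1:**
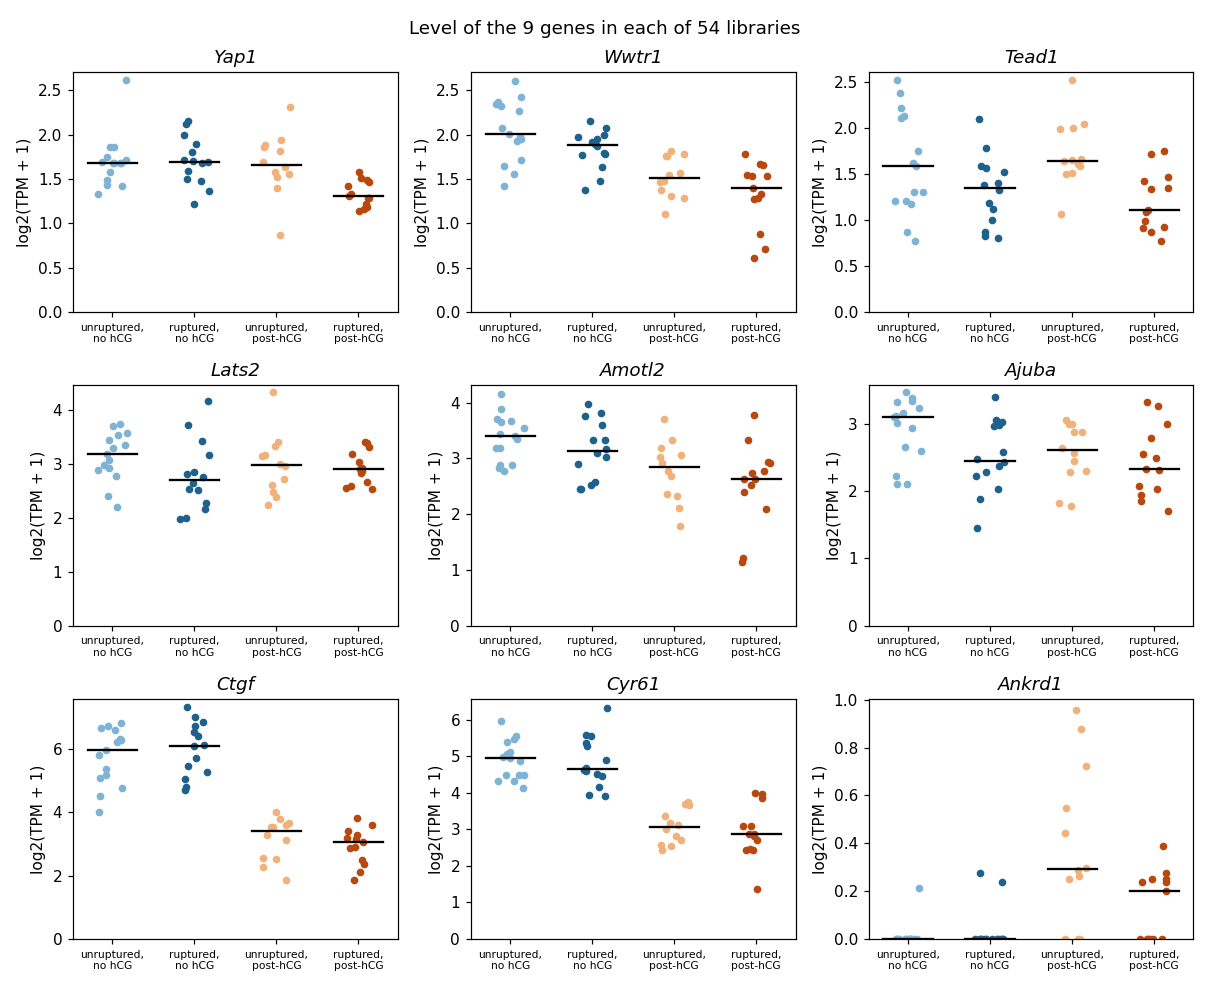
Level of each of the 9 genes in 54 libraries, as log2(TPM + 1), by follicle side and medium. Each point is 1 library and the bar is the group median. Ctgf and Cyr61 sit lower in both post-hCG groups, Ankrd1 is at 0 in 14 of 15 putative unruptured libraries, and the other genes overlap between groups.

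Ctgf, which encodes a secreted matrix-associated protein of the CCN family and is a widely used readout of YAP and TAZ, showed the largest change with hCG of the 8 genes that passed the filter. Its level on the putative unruptured side ran from 15.1 to 112 TPM with a median of 61.9 TPM, and on the putative ruptured side from 25.1 to 158 TPM with a median of 68.2 TPM. Post-hCG it ran from 2.64 to 14.98 TPM (median 9.60 TPM) on the unruptured side and from 2.64 to 13.01 TPM (median 7.29 TPM) on the ruptured side. No post-hCG library of either side reached the lowest library without hCG of the same side. This was so for 1.45% of the genes tested on the unruptured and 4.34% on the ruptured side. Ctgf was 7.60-fold lower on the unruptured side (log2FC -2.93, SE 0.30, n = 15 and 12, edgeR FDR 1.08e-09) and 9.84-fold lower on the ruptured side (log2FC -3.30, SE 0.28, n = 14 and 13, edgeR FDR 7.62e-12). The smallest library held 17 Ctgf counts post-hCG and 141 without hCG, so counting error was small beside the spread between libraries. The summed granulosa, theca, smooth muscle and surface epithelium markers also had lower medians post-hCG on both sides, as given above. The summed cumulus and endothelial markers had higher medians post-hCG on both sides. The 4 cumulus markers went from 5.23 to 17.3 TPM on the unruptured and from 10.6 to 15.2 TPM on the ruptured side. The endothelial markers went from 2.06 to 3.58 TPM and from 1.20 to 1.91 TPM. Of 8 tested granulosa markers, 5 were lower and 3 higher on the unruptured side, and 5 lower and 1 higher on the ruptured side. Over all genes, 53.1% and 60.1% were called. The part of these markers in the falls with hCG described here was not tested.

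Cyr61, the other CCN family gene that is a classical immediate target of YAP, followed the same course. It ran from 16.5 to 61.6 TPM (median 29.6 TPM) in putative unruptured libraries and from 13.9 to 78.7 TPM (median 24.0 TPM) on the putative ruptured side. Post-hCG its range was 4.40 to 12.4 TPM (median 7.35 TPM) on the unruptured and 1.59 to 14.9 TPM (median 6.25 TPM) on the ruptured side. The media groups did not overlap on the unruptured side, where 1.45% of the genes tested had every post-hCG library below every library without hCG. Of the ruptured libraries, 11 of the 13 taken post-hCG lay below every one without hCG. The fitted change was -2.06 (SE 0.21, edgeR FDR 1.11e-09) on the unruptured and -1.95 (SE 0.26, edgeR FDR 9.16e-08) on the ruptured side. Ctgf TPM exceeded Cyr61 TPM in 13 of 15 and 13 of 14 libraries without hCG, but in 6 of 12 and 5 of 13 libraries post-hCG. The median ratios were 2.28 and 2.41 without hCG and 0.99 and 0.97 post-hCG.

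Ankrd1, a nuclear ankyrin repeat protein and likewise a classical target, was almost undetected without hCG. It had 1 count in 15 putative unruptured libraries and 2 counts in 14 putative ruptured libraries, against 20 counts in 12 unruptured and 8 in 13 ruptured libraries post-hCG. Counts were seen in 9 of 12 unruptured and 7 of 13 ruptured libraries post-hCG, and in 1 of 15 and 2 of 14 without hCG. Its level was thus higher post-hCG where those of Ctgf and Cyr61 were lower. The ratio of its count rates post-hCG to no hCG was 27.03 (95% exact interval 4.32 to 1120) on the unruptured and 3.39 (0.677 to 32.8) on the ruptured side. These intervals cover counting error only, and the highest level in any library was 0.94 TPM. Without the filter on low counts, edgeR called the unruptured side (FDR 1.25e-05) and not the ruptured side (FDR 0.101), and DESeq2 gave adjusted p-values of 0.000514 and 0.333. Between the sides post-hCG the ratio of the ruptured to the unruptured rate was 0.351 (95% exact interval 0.134 to 0.831), with no call by edgeR without the filter (FDR 0.194).

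Wwtr1, which encodes TAZ, fell on both sides and Yap1 was called on 1. Wwtr1 ran from 1.67 to 5.10 TPM (median 3.01 TPM) in putative unruptured libraries and from 1.15 to 2.52 TPM (median 1.84 TPM) on the unruptured side post-hCG. On the ruptured side it ran from 1.6 to 3.45 TPM (median 2.69 TPM) without hCG and from 0.53 to 2.45 TPM (median 1.63 TPM) post-hCG. The groups overlapped, but all 12 and all 13 post-hCG libraries lay below the median of their side without hCG. The log2FC was -0.84 (SE 0.14, edgeR FDR 5.13e-06) on the unruptured and -0.58 (SE 0.15, edgeR FDR 0.00158) on the ruptured side.

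Yap1 ran from 1.51 to 5.15 TPM (median 2.20 TPM) on the putative unruptured and from 1.33 to 3.45 TPM (median 2.23 TPM) on the putative ruptured side. Post-hCG it ran from 0.83 to 3.97 TPM (median 2.16 TPM) on the unruptured and from 1.21 to 1.98 TPM (median 1.48 TPM) on the ruptured side. All 13 ruptured libraries post-hCG lay below the median of the putative ruptured side, while 6 of 12 unruptured ones lay below that of their side. The change was -0.37 (SE 0.12, edgeR FDR 0.00971) on the ruptured side and -0.16 (SE 0.14, edgeR FDR 0.352) on the unruptured side. That these differ was not shown, since the interaction was -0.22 (SE 0.18, edgeR FDR 0.522). Both coactivators were measured from few reads, with 10 to 47 counts of Yap1 and 10 to 87 of Wwtr1 in a library. Wwtr1 TPM exceeded Yap1 TPM in 11 of 15, 8 of 14, 2 of 12 and 7 of 13 libraries, in the order putative unruptured, putative ruptured, unruptured and ruptured.

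Tead1, 1 of the 4 TEAD factors through which YAP and TAZ reach DNA, was called in 0 of the 5 comparisons by edgeR, with an unadjusted p under 0.05 in both side comparisons. Its medians were 2.0 and 1.55 TPM on the 2 putative sides and 2.12 and 1.16 TPM in the post-hCG unruptured and ruptured groups, with every group between 0.70 and 4.73 TPM. The log2FC with hCG was 0.11 (SE 0.17) and 0.20 (SE 0.16). Between sides it was -0.39 (SE 0.18, edgeR FDR 0.128) without hCG and -0.31 (SE 0.14, edgeR FDR 0.120) post-hCG. The latter was called when libraries were scaled by totals (FDR 0.0274) or compared on log2(TPM+1) (limma, FDR 0.00930). DESeq2 called Tead1 in none.

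By TPM, Tead1 was not the main TEAD transcript. Tead2 TPM exceeded Tead1 TPM in 54 of 54 libraries, and Tead2 made up a median of 86.1% and 87.2% of the summed TEAD TPM on the 2 putative sides, and 74.8% and 79.5% in the post-hCG unruptured and ruptured groups. Tead3 held medians of 3.13% to 7.29%, and the median of Tead4 was 0 in every group. Tead2 levels had medians of 21.2, 14.3, 9.63 and 5.37 TPM in that order of groups. In counts Tead1 and Tead2 were nearer, with group sums of 841, 447, 589 and 486 against 942, 526, 325 and 337. The shares above thus hold for TPM and not for counts, and a library held 10 to 106 Tead2 counts. Tead2 fell post-hCG by 0.89 (SE 0.15, edgeR FDR 7.26e-06) on the unruptured and by 0.58 (SE 0.18, edgeR FDR 0.00565) on the ruptured side on the log2 scale.

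**Figure D2:**
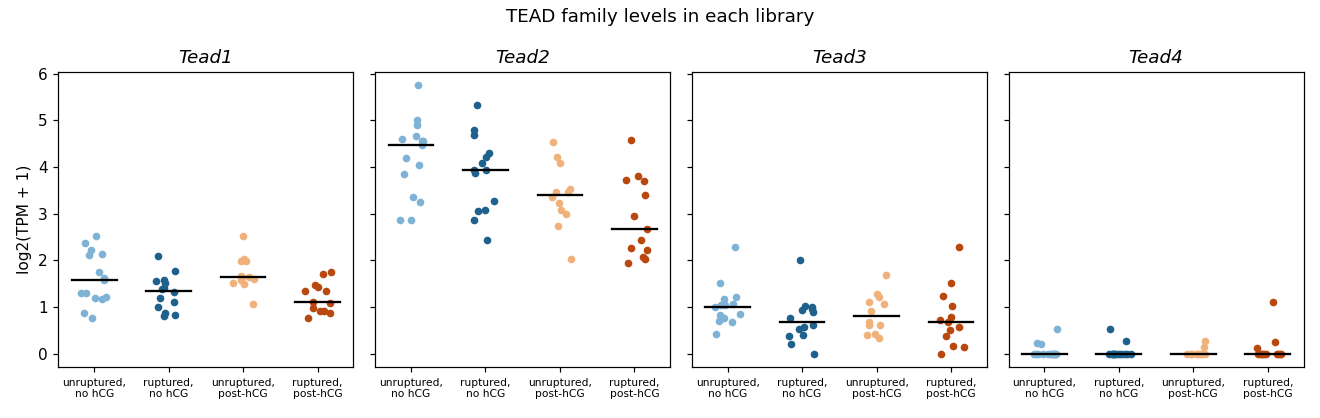
Levels of the 4 TEAD genes in 54 libraries as log2(TPM + 1), by follicle side and medium, 1 point per library and a bar at the group median. Tead2 lies above Tead1 in 54 of 54 libraries and is lower in the post-hCG groups, and the Tead4 median is at 0 in each group.

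Amotl2, a member of the angiomotin family that holds YAP at junctions and actin and is itself a YAP target, fell on both sides. It ran from 5.83 to 16.9 TPM (median 9.55 TPM) and from 4.45 to 14.8 TPM (median 7.76 TPM) on the 2 putative sides. Post-hCG it ran from 2.44 to 12.1 TPM (median 6.20 TPM) and from 1.21 to 12.8 TPM (median 5.22 TPM). The groups overlapped on both sides, with 11 of 12 and 11 of 13 post-hCG libraries below the median of their side without hCG. The log2FC was -1.14 (SE 0.15, edgeR FDR 1.49e-07) on the unruptured and -0.44 (SE 0.18, edgeR FDR 0.0337) on the ruptured side. The ruptured-side call was lost with a replicate block (FDR 0.0580) and with counts thinned to equal depth (FDR 0.0986). The block is the replicate number of the library titles. Nothing is known to tie libraries of the same number in the 2 media together, here and below. The difference between the sides' responses, 0.69 (SE 0.24), missed the threshold with edgeR (FDR 0.0526) and passed it with DESeq2 (adjusted p 0.0437) and with RLE size factors (FDR 0.0493).

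Ajuba encodes a LIM protein that binds and restrains LATS kinases. Its range was 3.30 to 10.1 TPM (median 7.58 TPM) on the putative unruptured and 1.72 to 9.53 TPM (median 4.46 TPM) on the putative ruptured side, and 2.44 to 7.29 TPM (median 5.08 TPM) and 2.24 to 8.97 TPM (median 4.02 TPM) in the post-hCG unruptured and ruptured groups. The media groups overlapped, and on the unruptured side all 12 post-hCG libraries lay below the median without hCG. It fell there by 0.53 on the log2 scale (SE 0.17, edgeR FDR 0.0110), a call lost with a replicate block (FDR 0.0629) and on log2(TPM+1) with limma (FDR 0.0958). On the ruptured side the log2FC was 0.09 (SE 0.19, edgeR FDR 0.689).

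Lats2, the kinase that phosphorylates YAP and is also induced by it as a feedback gene, was the member whose fitted change with hCG differed between sides. It ran from 3.57 to 12.4 TPM (median 8.12 TPM) on the putative unruptured, 2.91 to 17.0 TPM (median 5.49 TPM) on the putative ruptured, 3.70 to 19.2 TPM (median 6.89 TPM) on the unruptured and 4.79 to 9.58 TPM (median 6.44 TPM) on the ruptured side. All 4 groups overlapped. It fell on the unruptured side (log2FC -0.32, SE 0.13, edgeR FDR 0.0357) and rose on the ruptured side (log2FC 0.51, SE 0.14, edgeR FDR 0.00232). The interaction was 0.83 (SE 0.19, edgeR FDR 0.00338), where 8.91% of 10013 genes were called and Lats2 was the 1 called gene of the 8. On log2(TPM+1) the interaction was 0.31 (limma FDR 0.522), with neither media change called (limma FDR 0.546 and 0.544). Scaling by library totals reduced the rise on the ruptured side to 0.18 (FDR 0.315). The fall on the unruptured side also missed the threshold with a replicate block (FDR 0.121), with thinned counts (FDR 0.142) and without putative unruptured replicate 8 (FDR 0.0674).

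The side comparison asks whether the regions of the follicle wall differed in these genes without and with the stimulus. Without hCG 1 of the 8 genes was called, where 17.8% of 9063 genes were called, and post-hCG 1 of 8, where 21.4% of 8585 were called. In both cases it was Lats2, with a log2FC of -0.43 (SE 0.15, edgeR FDR 0.0403) without hCG and of 0.39 (SE 0.11, edgeR FDR 0.0100) post-hCG, the latter turning to -0.04 on log2(TPM+1). The call without hCG was lost without putative unruptured replicate 8 (FDR 0.0743). For the targets, the side differences were 0.31 (SE 0.31, FDR 0.540) and -0.08 (SE 0.20, FDR 0.839) for Ctgf and 0.07 (SE 0.24, FDR 0.887) and 0.16 (SE 0.21, FDR 0.645) for Cyr61, without hCG and post-hCG, by edgeR. Ajuba, Amotl2 and Tead1 had fitted values of -0.43, -0.33 and -0.39 without hCG, each with an unadjusted p under 0.05 and an FDR over 0.1.

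With the letter of the library name as a term, which compares sides within letters C and G, 0 of the 8 genes were called by edgeR in either side comparison or in the interaction. This fit called 4 genes in all without hCG in place of 1613, and 726 in place of 1833 post-hCG. Lats2 was then at 0.08 (SE 0.23) without hCG, the opposite sign, and at 0.27 (SE 0.18) post-hCG. Within letter G, Lats2 ran from 5.22 to 17.0 TPM in 5 putative ruptured and from 3.57 to 12.1 TPM in 5 putative unruptured libraries. The 9 putative ruptured libraries of letter H ran from 2.91 to 7.97 TPM and the 10 putative unruptured ones of letter F from 4.30 to 12.4 TPM. The medians were thus 9.68 against 6.54 TPM within letter G and 4.69 against 8.95 TPM between letters H and F. Ajuba likewise had medians of 7.14 and 3.86 TPM in the putative ruptured libraries of letters G and H. Ctgf was 68.9 and 67.4 TPM in the same libraries.

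In the other lists of pathway genes, counts of calls with hCG stand beside the 53.1% of all genes called on the unruptured and the 60.1% called on the ruptured side. Of the 10 coactivator and TEAD partner genes, 6 were tested on the unruptured side, where 3 fell and 1 rose, and 5 on the ruptured side, where 4 fell and 0 rose. Vgll4, which competes with YAP for TEAD, fell by 0.79 (SE 0.15, edgeR FDR 6.95e-05) on the unruptured and by 1.51 (SE 0.16, edgeR FDR 8.49e-10) on the ruptured side. It was the 1 gene of this list called between sides without hCG, at 0.54 (edgeR FDR 0.00727), a call lost on log2(TPM+1) with limma and with the library letter as a term. Vgll3, another TEAD cofactor, rose by 0.77 on the unruptured side (SE 0.29, edgeR FDR 0.0262), a call lost with library totals or a replicate block.

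Of the 17 Hippo kinase module genes, 15 were tested, of which 4 fell and 1 rose on the unruptured side, and 6 fell and 3 rose on the ruptured side. These counts are no larger a share than the 53.1% and 60.1% of all genes called. Their median log2FC was -0.07 and -0.03. Stk3, which encodes the upstream kinase MST2, fell by 1.07 (SE 0.10) and 0.72 (SE 0.14), and Wwc2, a KIBRA relative that activates LATS kinases, fell by 1.08 (SE 0.13) and 1.18 (SE 0.13), on the unruptured and ruptured sides. Nf2, the tumor suppressor Merlin that brings LATS to the membrane, rose by 0.65 (SE 0.14) and 0.90 (SE 0.15), the unruptured-side call being lost on log2(TPM+1). Frmd6, another upstream FERM protein, was lower on the putative ruptured than the putative unruptured side (log2FC -0.85, SE 0.19, edgeR FDR 0.00157) and rose on the ruptured side with hCG (log2FC 0.82, SE 0.18, edgeR FDR 0.000293). Stk38, a kinase related to LATS, fell by 0.51 on the ruptured side. Stk4, which encodes MST1, was lower on the ruptured side post-hCG (log2FC -0.42, edgeR FDR 0.0237), a call lost without the filter and with thinned counts. Stk3 was lower on the putative ruptured side (log2FC -0.55, SE 0.11, edgeR FDR 0.000902). Between sides without hCG, 3 of the 15 genes were called lower on the putative ruptured side and 0 higher, where 17.8% of all genes were called. With the library letter as a term, the side calls of Frmd6, Stk3 and Stk4 were lost.

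Of the 11 junction scaffold and LIM protein genes, 10 were tested and 5 fell and 2 rose on each side with hCG, beside 53.1% and 60.1% of all genes called. Fat4, the giant cadherin that feeds into Hippo signaling, fell the most, from medians of 1.70 and 1.81 TPM to 0.12 and 0.07 TPM, with a log2FC of -4.30 (SE 0.26, edgeR FDR 3.17e-15) and -4.14 (SE 0.25, edgeR FDR 1.01e-15). No post-hCG library reached a library without hCG on either side. This was so for 1.45% of the genes tested on the unruptured and 4.34% on the ruptured side. Post-hCG levels of Fat4 were near 0, at most 0.34 TPM on each side. Its partner cadherin Dchs1 fell on the ruptured side by 0.54 (SE 0.21, edgeR FDR 0.0296), a call lost without the filter. Within the angiomotin family the directions were opposite, since Amot fell by 0.56 (SE 0.17) and 0.76 (SE 0.15) as Amotl2 did, and Amotl1 rose by 0.52 (SE 0.10) and 0.88 (SE 0.13), with the call of Amot on the unruptured side lost on log2(TPM+1). Ptpn14, a phosphatase that binds YAP and also belongs to the target signature, rose by 0.94 (SE 0.15, edgeR FDR 2.56e-06) and 1.75 (SE 0.15, edgeR FDR 3.11e-12). Between sides without hCG, 1 of the 10 tested was called higher on the putative ruptured side and 2 lower, where 17.8% of all genes were called. Tjp1, a tight junction scaffold, was higher there at 0.39 (edgeR FDR 0.0326), a call lost under 6 alternatives. Ptpn14 and Amotl1 were lower there, at -0.56 (edgeR FDR 0.0134) and -0.52 (edgeR FDR 0.00337). Both calls were lost on log2(TPM+1) and with the library letter as a term.

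**Figure D3:**
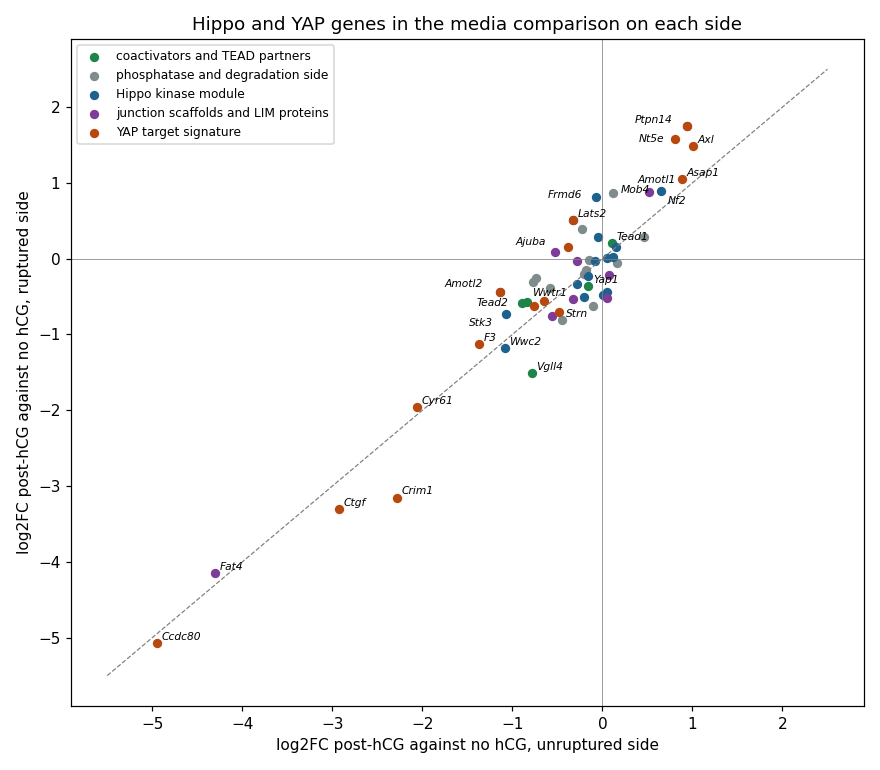
Fitted log2FC post-hCG against no hCG on the unruptured (horizontal axis) and ruptured side (vertical axis) for genes tested on both, coloured by list, with the dashed line marking equal values. Ctgf, Cyr61, Crim1, Fat4 and Ccdc80 lie far down the line, Ptpn14, Axl, Asap1 and Nt5e lie above 0 on both axes, and the 2 axes share no libraries.

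The 12 genes of the phosphatase and degradation side, the STRIPAK subunits that oppose the MST kinases and the enzymes that target YAP for degradation, were all tested. On the unruptured side 4 fell and 1 rose, and on the ruptured side 4 fell and 2 rose, smaller shares than the 53.1% and 60.1% of all genes called. Pdcd10, Slmap and Strn3, STRIPAK subunits, fell on the unruptured side by 0.77 (SE 0.16), 0.74 (SE 0.17) and 0.58 (SE 0.14). On the ruptured side Strn fell by 0.81 (SE 0.12) and Strn3 by 0.38 (SE 0.15), while Mob4 rose by 0.87 (SE 0.12) and Strn4 by 0.39 (SE 0.11). Btrc, part of the ligase that recognizes phosphorylated YAP, rose by 0.46 (SE 0.13) on the unruptured side, and Csnk1e, a casein kinase, fell by 0.63 (SE 0.16) on the ruptured side. Between sides, Strn was at 0.42 and Strn4 at -0.38 without hCG, and Mob4 at 0.60 and Csnk1e at -0.68 post-hCG, each called by edgeR. All 4 side calls were lost with the library letter as a term, where Strn4 turned to 0.11. Strn and Mob4 also lost theirs on log2(TPM+1), and Strn4 with thinned counts. With hCG, the calls of Btrc on the unruptured and Strn4 on the ruptured side were lost with library totals and on log2(TPM+1), and that of Strn3 on the ruptured side with thinned counts, without the filter and with a replicate block.

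A signature of 22 genes that YAP is known to induce did not move as 1 block. It holds 5 of the 9 members, Ctgf, Cyr61, Amotl2, Lats2 and the untested Ankrd1. On the unruptured side 17 were tested, of which 11 fell and 5 rose, and on the ruptured side 15 were tested, of which 8 fell and 5 rose, beside 53.1% and 60.1% of all genes called. The median log2FC was -0.48 and -0.56 beside -0.03 and -0.00 over all genes. Ccdc80, a secreted matrix protein, fell by 4.95 (SE 0.25, edgeR FDR 7.35e-17) and 5.07 (SE 0.35, edgeR FDR 4.90e-14), and Crim1, a transmembrane BMP regulator, by 2.28 (SE 0.20) and 3.15 (SE 0.17). In the opposite direction, the receptor tyrosine kinase gene Axl rose by 1.00 (SE 0.14, edgeR FDR 2.46e-07) and 1.48 (SE 0.15, edgeR FDR 2.06e-10), from medians of 99.2 and 67.8 TPM to 216 and 155 TPM. Igfbp3, which binds insulin-like growth factors, rose by 2.0 (SE 0.47, edgeR FDR 0.000623) on the unruptured side and was not tested on the other. Nt5e, the ectonucleotidase CD73, rose by 1.58 (SE 0.27) on the ruptured side and by 0.81 (SE 0.31) on the unruptured side, the latter call being lost with library totals.

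Between the sides, 7 signature genes were called of 17 tested without hCG, 6 lower and 1 higher on the putative ruptured side, and 6 of 15 post-hCG, 4 lower and 2 higher, where 17.8% and 21.4% of all genes were called. Crim1 was higher on the putative ruptured side (log2FC 0.96, SE 0.17, edgeR FDR 0.000135). Ccdc80 was lower there by 1.86 (SE 0.26), Nt5e by 1.41 (SE 0.35) and Rbms3, an RNA-binding protein, by 1.03 (SE 0.32), all called by edgeR. Igfbp3 had the largest side difference post-hCG, from 8.30 to 129 TPM (median 28.3 TPM) on the unruptured and from 0 to 15.9 TPM (median 0.75 TPM) on the ruptured side, with a log2FC of -4.17 (SE 0.56, edgeR FDR 2.04e-06). The theca and immune markers differed between the sides in the same direction, as given above, and their part in this was not tested. Nt5e and Myof, a membrane repair protein, were lower on the ruptured side post-hCG by 0.65 and 0.38, and Arhgef17 was at 0.36. With the library letter as a term, all but Igfbp3 and Nt5e post-hCG lost these calls. That of Nt5e post-hCG was lost with thinned counts and in a fit of all 4 groups, that of Myof in the latter and on log2(TPM+1), and that of Arhgef17 under 5 alternatives.

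The CCN family did not fall as a whole. Of its 6 genes, 4 were tested on the unruptured side, where 3 fell and 1 rose, and 3 on the ruptured side, where 2 fell and 1 rose. Over all genes, 53.1% and 60.1% were called, and 27.7% and 30.4% were called lower. The members Ctgf and Cyr61 are among the genes that fell. Wisp2, a CCN protein that lacks the C-terminal domain, rose from a range of 0.53 to 6.43 TPM to 6.34 to 20.3 TPM on the unruptured side and from 0.18 to 5.45 TPM to 5.20 to 32.2 TPM on the ruptured side. The media groups thus met only at their edges on both sides. Its log2FC was 2.06 (SE 0.25, edgeR FDR 4.06e-08) and 3.45 (SE 0.30, edgeR FDR 6.69e-12), opposite to Ctgf and Cyr61. Wisp1 fell on the unruptured side by 1.52 (SE 0.31, edgeR FDR 0.000134) and was lower on the putative ruptured than the putative unruptured side by 1.58 (SE 0.46, edgeR FDR 0.0136), the latter call being lost with the library letter as a term. Post-hCG Wisp2 was at 0.62 between the sides (edgeR FDR 0.0325), a call lost under 6 alternatives. Of the 3 muscle ankyrin repeat genes, Ankrd23 alone was tested, and it was at 0.77 on the putative ruptured side (edgeR FDR 0.0324), a call lost under 7 alternatives.

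Of 12 genes known to respond to LH, all 10 tested rose on the unruptured side and 7 of 9 tested rose on the ruptured side. Over all genes, 2365 of 9320 and 2532 of 8531 rose. The list was chosen with earlier results of these data known, so it is not an independent control on the stimulus. Their summed level went from 47.9 to 262 TPM without hCG to 813 to 1874 TPM post-hCG on the unruptured side, and from 43.7 to 226 TPM to 827 to 1841 TPM on the ruptured side.

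Within groups, the levels of Ctgf, Cyr61 and Amotl2 varied together from library to library. Deviations of log2(TPM+1) from the group mean over 54 libraries gave a Pearson's r of 0.61 between Ctgf and Amotl2, 0.51 between Ctgf and Cyr61, and 0.51 between Cyr61 and Amotl2. Wwtr1 had an r of 0.52 with Amotl2, 0.50 with Ctgf and 0.42 with Cyr61. For Yap1 the same values were 0.10, 0.08 and 0.04. Lats2 had an r of 0.49 with Tead1, 0.47 with Ajuba and 0.37 with Yap1, beside 0.25 with Amotl2, 0.12 with Cyr61 and -0.05 with Ctgf. Ajuba had 0.47 with Tead1 and 0.46 with Cyr61, and Wwtr1 had 0.45 with Tead1. Ankrd1 had 0.19 to 0.29 with Ctgf, Cyr61 and Amotl2. Libraries share depth and composition, low counts weaken a correlation, and no test was made. Only group means were removed, so differences between library letters within a group remain. In ruptured libraries post-hCG, letters C and D had medians of 13.6 and 5.03 TPM for Cyr61, 6.64 and 4.99 TPM for Amotl2 and 8.86 and 6.44 TPM for Ctgf. In putative ruptured libraries, letters G and H had 68.9 and 67.4 TPM for Ctgf. With the summed theca markers the 9 genes had an r of -0.07 to 0.25, and with the granulosa markers of -0.23 to 0.25. Over the 9 lists of marker and LH response genes, the values farthest from 0 were -0.40 for Ctgf with cumulus markers, 0.39 for Lats2 and -0.37 for Ctgf with the LH response genes, and Ctgf had 0.08 with the smooth muscle markers.

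**Figure D4:**
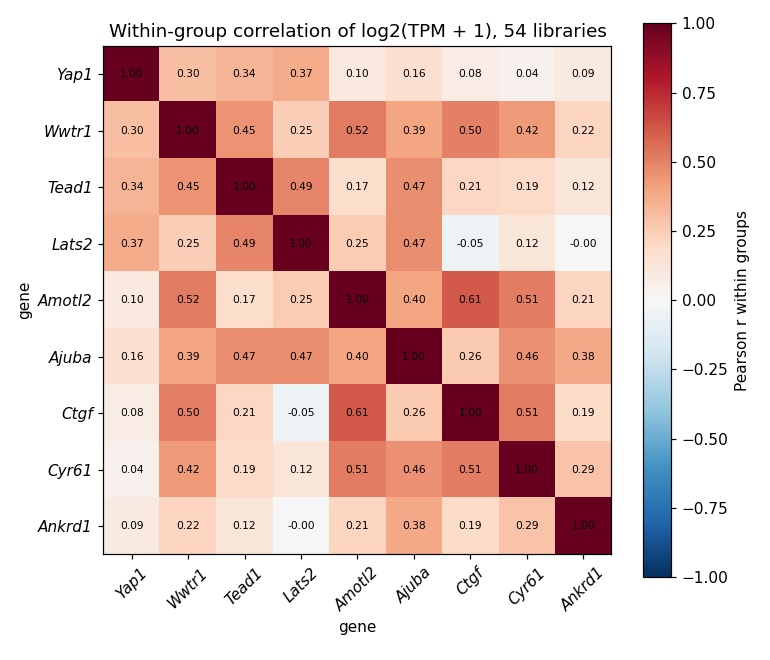
Pearson's r between the 9 genes over 54 libraries after the group means of log2(TPM + 1) were removed, from -1 (blue) to 1 (red). The pairs of Ctgf, Cyr61, Amotl2 and Wwtr1 have values of 0.42 to 0.61, and Yap1 has 0.04 to 0.10 with the first 3 of them. Some other pairs lie in the same range, such as Lats2 with Tead1 at 0.49 and Ajuba with Cyr61 at 0.46.

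Over 5262 genes whose mean level reached 5 TPM, those most like each member within groups were as follows. Zyx, which encodes the focal adhesion protein zyxin, led for both Wwtr1 (r = 0.69) and Cyr61 (r = 0.61). Wwtr1 was followed by Tsr3 and Rbm14 (0.64 each) and Cyr61 by Myc (0.56) and Upf3a (0.53). Ctgf was most like Pik3ip1 (0.75), Arhgef28 (0.71) and Ddit4l (0.71), and Amotl2 like Sox4 (0.70), Lzts2 (0.68) and Repin1 (0.65). Ajuba was most like Smo (0.73), Adgrl2 (0.73) and Scaf4 (0.69), Lats2 like Ptprg (0.69), Hnrnpul1 (0.68) and Rb1cc1 (0.68), and Tead1 like Sptbn1 (0.72), Ano6 (0.69) and Tpr (0.69). Yap1 had its highest values with Gart (0.60), Rspry1 (0.57) and Zfp445 (0.56), and Ankrd1, mostly at 0, with Ube2d2a (0.53), Hint2 (0.50) and Arf5 (0.48). With a pseudocount of 0.1 in place of 1, the value of Ctgf with Pik3ip1 fell to 0.61.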

How the data were processed

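The authors aligned paired-end Smart-Seq2 reads to GRCm38 with HISAT2, ran ComBat-seq on the counts as batch correction and tested with DESeq2. The deposited tables hold estimated counts per gene, 27.8% of the values above 0 with a fraction, and TPM values. The counting program, the annotation and whether the deposited tables precede the batch correction are not given in the sources used here. All columns matched a sample. Counts were rounded, filtered (edgeR's filterByExpr, at least 10 counts in enough libraries and 15 in all), normalized by TMM and compared in R 4.3.3 with edgeR 4.0.16, each pair of groups in a fit of its own and the interaction over all 4 groups. Each fit was tested on simulated data. Alternatives were DESeq2 1.42.0, limma 3.58.1 on log2(TPM+1) or log2(TPM+0.1) where the mean level reached 1 TPM, RLE size factors, library totals, no filter, 1 joint fit, a replicate block, counts thinned to the smallest library and leaving out the library with the most counts of a called gene. The library letter as a term was added after seeing the data. Levels, correlations and motifs were computed in Python 3.11.15 with numpy 2.4.6, pandas 2.3.3 and scipy 1.17.1. Apart from the 9 genes, those named are, per list, comparison and direction, up to 3 with the largest called log2FC, and the 3 most like each member. The members and lists were chosen with earlier results of these data known. The lists follow general knowledge of the pathway and of ovarian cell types. No library repeated another within sampling noise, since the lowest chi-square per gene between 2 libraries of a group was 4.02. Antisense and paralogous reads could not be told apart from the tables.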

Additional observations from a re-analysis of the deposited data

Results flagged for a closer look

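The change with hCG differed between the 2 sides, by edgeR's test of the interaction at an FDR under 0.05, for 1 member and 9 other named genes of the pathway. Over all genes, 8.91% of 10013 were called. Calls were made for 1 of 8 members, 1 of 6 coactivator and TEAD partner genes, 2 of 15 kinase module genes and 1 of 10 junction genes. They were made for 2 of 12 phosphatase and degradation genes and 1 of 4 CCN genes. Of 17 signature genes, 3 were called positive and 2 negative, and some genes are in more than 1 list. A positive value means that the change was more positive on the ruptured side. Lats2 had an interaction of 0.83 (log2 scale). Among the pathway genes the values were 0.88 for Frmd6, 0.81 for Ptpn14, 0.75 for Mob4, 0.62 for Strn4, 0.53 for Arhgef17 and 1.39 for Wisp2. The interaction was -0.73 for Vgll4, -0.88 for Crim1 and -2.10 for Rbms3. With the library letter as a term none of these 10 was called, and on log2(TPM+1) Vgll4 and Crim1 were called. The part of the theca markers, which were lower on ruptured sides in both media, was not tested.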

How the results depend on the processing

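Of the members called without hCG between sides, 1 by edgeR, 0 were called with limma on log2(TPM+1), with limma on log2(TPM+0.1), with thinned counts or with the library letter as a term. Post-hCG, 1 was called, against 2 with limma on log2(TPM+1), both lower, 0 with thinned counts and 0 with the letter. For the interaction 1 was called, against 2 with DESeq2, 2 with RLE size factors, 0 with limma at either pseudocount and 0 with the letter. In the media comparisons, 4 to 7 members were called on the unruptured side and 5 or 6 on the ruptured side under every alternative run. The side post-hCG change of Lats2 turned to -0.0399 with limma on log2(TPM+1) and -0.0359 on log2(TPM+0.1), and that without hCG to 0.0768 with the letter, as did Strn4 without hCG (0.111). Lats2 lost its call without hCG in the leave-one-out fit. Library totals moved the median of all genes to -0.25 and -0.33 with hCG on the unruptured and ruptured sides and to -0.14 between sides post-hCG. They changed the split of higher and lower calls from 2365 and 2582 to 1455 and 3844, from 2532 and 2597 to 1376 and 4242, and from 862 and 971 to 397 and 1830, and that of the interaction from 426 and 466 to 230 and 660. Limma on log2(TPM+1) gave 2207 and 1623, 1568 and 3005, 214 and 2166, and 85 and 679 in the same order. Without hCG, library totals gave 585 and 905 in place of 801 and 812, limma 456 and 598, and the letter 4 and 0; post-hCG the letter gave 305 and 421, and for the interaction 3 and 19. The same-numbered libraries did not deviate together, since at most 4 of 12 pairs correlated over 0.1 in any comparison. No pairing by these numbers was thus seen, and other pairings were not tried. With the replicate block 1, 1, 4, 5 and 1 members were called in the 5 comparisons. Depth limited Ankrd1, Yap1 and Wwtr1, at 0 to 87 counts in a library.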
